A study of Mus musculus with 6 samples.

Results

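The NADPH oxidase of phagocytes and the enzymes that remove its products were examined as 9 genes of the deposited table of 54532 genes, namely Cybb, Cyba, Ncf1, Ncf4, Rac2, Sod1, Sod2, Cat and Gpx1. They were chosen by gene symbol, each symbol matched 1 row, and all 9 were among the 9794 genes with a mean of at least 1 FPKM (fragments per kilobase of gene, scaled to a common library size), the level at which genes were tested. RNA-seq of poly-A RNA was performed on macrophages washed from the peritoneal cavity of wild-type male C57BL/6J mice, 6 to 8 weeks old, after thioglycolate had drawn cells into the cavity. Cells were cultured overnight in all 3 groups, with 2 libraries per group. Control cells were left untreated, and Model cells received 500 ng/mL LPS for 5.5 h and then 2 mM ATP for 0.5 h. For MUS, 50 μM muscone, a macrocyclic ketone of musk, was added to such cells 0.5 h before ATP. Model vs. Control thus covers LPS and ATP together, and MUS vs. Model covers muscone in cells that had already been primed with LPS. No source used here says whether the libraries came from separate mice or cultures, so p-values measure only the spread between these libraries.

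The phagocyte oxidase passes electrons from NADPH across a membrane to oxygen and so makes superoxide. Cybb (gp91phox) carries the electrons and forms a membrane heterodimer with Cyba (p22phox), while cytosolic subunits such as Ncf1 (p47phox) and Ncf4 (p40phox) and a Rac GTPase wait in the cytosol until a stimulus brings them to the membrane. Superoxide dismutases turn superoxide into hydrogen peroxide, which catalase and the glutathione peroxidases remove, and macrophages are known for both arms because they kill microbes with oxidants that can also harm the cell.

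Each library had between 15526321 and 17135442 fragments on genes, recovered from the table. All 8 macrophage markers were at or above a mean of 1 FPKM, but they did not move together. Between Control and Model, the mean FPKM went from 240 to 92.0 for Csf1r and from 951 to 582 for Cd68. For Fcgr1 it went from 13.1 to 154, and for Cd14 from 266 to 1448. Of 10 neutrophil markers, only S100a8 reached a mean of 1 FPKM, and S100a9, Ly6g, Elane and Retnlg were at 0 in every library. The summed neutrophil markers were at 14.0 to 31.0 FPKM in Control libraries, 57.7 to 112 in Model and 50.9 to 64.6 in MUS, nearly all of it S100a8. Of the other lists, 0 of 5 B cell, 0 of 5 T and innate lymphocyte and 0 of 5 mast cell markers reached a mean of 1 FPKM, against 1 of 5 eosinophil (Siglecf) and 2 of 5 mesothelial or fibroblast markers (Col1a1 and Dcn). The eosinophil list summed to 2.63 to 4.08 FPKM in Control, 1.46 to 1.68 in Model and 1.49 to 1.56 in MUS, and the mesothelial or fibroblast list to 10.7 to 11.5, 13.5 to 21.0 and 12.4 to 14.3. Dcn had means of 2.60, 7.07 and 7.13 FPKM. The mitochondrially encoded share of fragments was 1.39% to 1.51% in Control, 0.352% to 0.497% in Model and 0.206% to 0.314% in MUS. The part of these differences in the results was not tested. The replicates of Control, and those of Model, differed from each other more than those of MUS did. Across the tested genes, log2(FPKM + 1) of Control replicate 1 correlated with that of the Model libraries at r = 0.745 and 0.727. Control replicate 2 did so at 0.862 and 0.872. The Control pair itself correlated at 0.924, the Model pair at 0.944 and the MUS pair at 0.981. Model replicate 1 had 24906 genes above 0 FPKM, where the other libraries had 17406 to 19200. Its FPKM sum was 391736, against 301384 for Model replicate 2. For the members with the largest differences, values are therefore also given within each replicate number, which the labels call the batch. In bulk RNA, fewer cells of a type and less RNA per cell cannot be told apart.

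The promoters of 4 of the genes are shown because these genes had contrasting courses over the groups, Sod2 and Cybb being highest in MUS, Cat lowest after LPS and ATP, and Cyba lowest in MUS. RefSeq windows (GRCm38.p6) matched 7 of the 9 genes, the exceptions being Ncf4 and Rac2. The sequences run 5′ to 3′ on the strand of the gene and end at the transcript start or before the first annotated exon base. Capitals mark matches, on either strand, to a kappaB motif (GGG, any 3 bases, TTCC), a PU.1 core (GAGGAA), an AP-1 motif (TGANTCA), a GC box (GGGCGG) or an interferon-response motif (GAAA, any 2 bases, GAAA). They lie at chr17:13007589-13007816 on the plus strand, and at chrX:9469325-9469574, chr2:103485161-103485403 and chr8:122432941-122433190 on the minus strand.
Sod2: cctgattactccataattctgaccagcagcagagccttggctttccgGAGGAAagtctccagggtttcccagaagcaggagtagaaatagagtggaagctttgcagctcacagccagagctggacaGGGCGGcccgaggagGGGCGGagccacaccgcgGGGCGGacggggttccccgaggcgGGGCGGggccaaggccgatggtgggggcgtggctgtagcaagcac
Cybb: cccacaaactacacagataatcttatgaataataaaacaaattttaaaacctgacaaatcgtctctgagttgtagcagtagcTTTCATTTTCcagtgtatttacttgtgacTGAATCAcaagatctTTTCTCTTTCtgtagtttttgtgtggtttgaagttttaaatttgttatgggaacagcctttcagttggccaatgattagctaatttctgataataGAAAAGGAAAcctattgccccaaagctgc
Cat: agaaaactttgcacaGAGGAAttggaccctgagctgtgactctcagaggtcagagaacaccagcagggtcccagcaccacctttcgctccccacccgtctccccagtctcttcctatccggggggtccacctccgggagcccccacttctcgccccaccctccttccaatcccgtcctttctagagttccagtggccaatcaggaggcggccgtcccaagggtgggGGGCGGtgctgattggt
Cyba: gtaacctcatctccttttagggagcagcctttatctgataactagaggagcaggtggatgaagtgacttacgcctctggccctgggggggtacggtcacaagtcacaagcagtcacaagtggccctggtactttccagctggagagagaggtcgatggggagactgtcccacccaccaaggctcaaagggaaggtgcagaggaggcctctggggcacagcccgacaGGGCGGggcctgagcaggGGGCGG
The Sod2 window held 4 GC boxes and 1 PU.1 core, the Cat window 1 of each, and the Cyba window 2 GC boxes. The Cybb window had a GC content of 34%, against 60%, 62% and 63.6% for the 250 bases before the start of Cyba, Cat and Sod2. It held 3 interferon-response motifs and 1 AP-1 motif. These counts cover only bases before the start. Over 300 bases, which also take in bases past the start, Cybb held 1 PU.1 core as well, while Sod2, Cat and Cyba gained no match. Of 32851 RefSeq windows of 300 bases, 3.44% held at least 1 interferon-response motif, 7.81% an AP-1 motif, 28.3% a PU.1 core, 35.7% a GC box and 5.56% a kappaB motif. The kappaB letters were in none of the 4 windows. Among the 7 they occurred once, in the Gpx1 window, before the RefSeq start but past the first annotated exon base. These are matches of letters in short windows, and no binding was measured.

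The membrane heterodimer had the highest levels of the oxidase members, and neither of its subunits was called in any of the 3 comparisons. Cybb (chrX:9435252-9487771, minus strand) was at 242 and 922 FPKM in Control libraries, 952 and 1294 in Model libraries, and 1497 and 1330.2 in MUS. The lowest library was Control replicate 1, and every Model library lay above both Control libraries, although Control replicate 2 came close to Model replicate 1. The Model vs. Control log2 fold change was 1.23 ± 0.63 (SE, n = 2 libraries per group) and missed the threshold (adjusted p = 0.218). It was 1.97 within replicate number 1 and 0.49 within number 2. Without Control replicate 2 it was 2.19 and called (adjusted p = 0.0107), and without Control replicate 1 it was 0.27.

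Cyba (chr8:122424776-122432930, minus strand), whose product stabilises that of Cybb and docks the cytosolic subunits, was at 627 and 556 FPKM in Control libraries, 785 and 419 in Model libraries, and 198 and 292 in MUS. Both MUS libraries were below every Control and Model library, and the Model libraries lay on either side of the Control pair. Model vs. Control gave a log2 fold change of -0.042 ± 0.43, whose sign turned under 4 of 19 alternatives. MUS vs. Model gave -1.25 ± 0.43, a 95% interval of -2.27 to -0.23 and an adjusted p of 0.493. It was -1.98 within number 1 and -0.52 within number 2. Without Model replicate 1 it was -0.80, and without Model replicate 2 it was -1.70. MUS vs. Control gave -1.29 ± 0.43 (adjusted p = 0.0694), which was called under 8 of 19 alternatives.

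The ratio of Cybb to Cyba within a library, which does not depend on how libraries are scaled, was 0.386 and 1.66 in Control libraries, 1.21 and 3.09 in Model libraries, and 7.55 and 4.56 in MUS. Both MUS values were above all others, and the Control and Model values overlapped. FPKM divide by gene length, so levels of these genes can be compared, but the lengths used (5808 bases for Cybb and 1039 for Cyba) join all annotated exons. The genes also differ in GC content, at 42.5% for Cybb and 58.8% for Cyba. A shift between libraries with GC content or length would stay in the ratio, and its part was not tested.

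**Figure D1:**
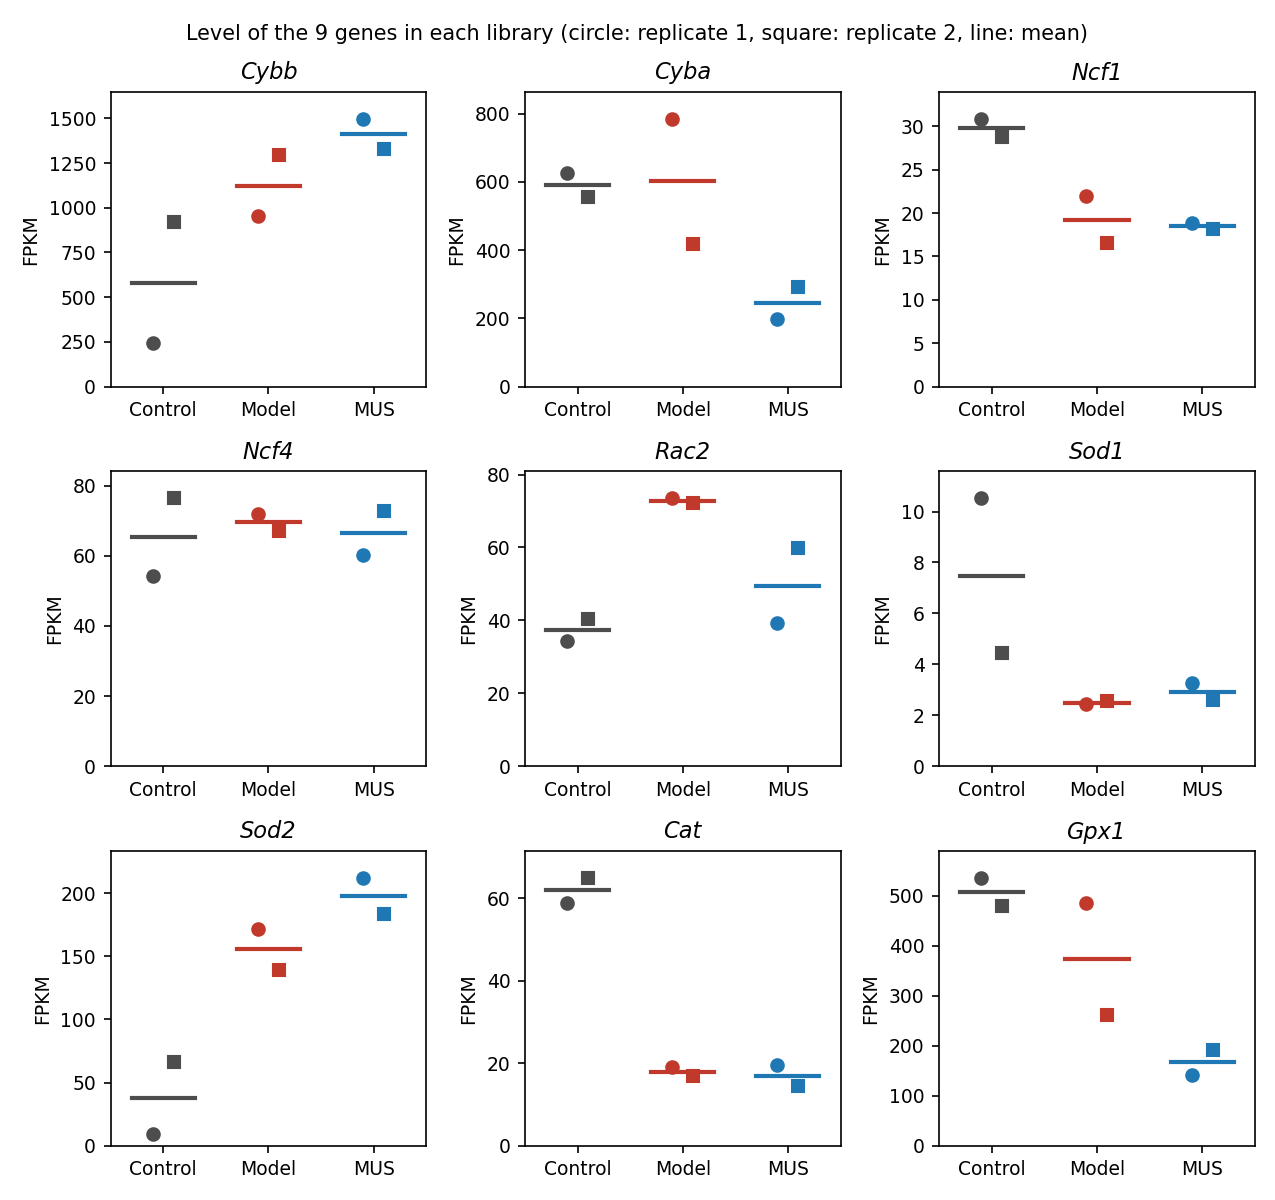
FPKM (y axis, from 0) of each of the 9 genes in the 6 libraries, by group (x axis), with circles for replicate 1, squares for replicate 2 and a line at the group mean. Cat is lower in all 4 stimulated libraries than in Control, Cyba and Gpx1 are lowest in both MUS libraries, and the Control replicates lie far apart for Cybb, Sod2 and Sod1.

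The cytosolic subunits were far below the membrane pair, and Ncf1 and Ncf4 missed the threshold in all 3 comparisons. Ncf1 (chr5:134220053-134229625, minus strand), the organiser that is phosphorylated on activation, was at 30.9 and 28.7 FPKM in Control libraries, 22.0 and 16.5 in Model libraries, and 18.9 and 18.2 in MUS. All 4 stimulated libraries were below both Control libraries, with log2 fold changes of -0.62 ± 0.26 in Model vs. Control (adjusted p = 0.143, -0.47 within number 1 and -0.76 within number 2) and -0.66 ± 0.26 in MUS vs. Control (adjusted p = 0.103). It was called lower in both when libraries were scaled by fragment totals, to equal sums or by quantiles, with values between -1.18 and -1.06 (adjusted p = 0.0122 to 0.0279). Of the 50-base stretches of its transcripts, 7.45% also occur in another gene, most in the overlapping Gtf2ird2, which had a mean of 0.746 FPKM. Ncf4 (chr15:78244801-78262580, plus strand), which binds a membrane phosphoinositide, was at 54.4 and 76.4 FPKM in Control libraries, 72.0 and 67.2 in Model libraries, and 60.2 and 72.7 in MUS, so that all groups overlapped. Its log2 fold changes were 0.11, -0.071 and 0.037 in Model vs. Control, MUS vs. Model and MUS vs. Control, and their signs turned with the scaling.

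Rac2 (chr15:78559167-78572783, minus strand), the Rac GTPase of blood cells, was at 34.2 and 40.5 FPKM in Control libraries, 73.5 and 72.2 in Model libraries, and 39.3 and 59.7 in MUS. The Model libraries were the highest, and the MUS libraries lay between Model and Control or within Control. Model vs. Control gave a log2 fold change of 0.95 ± 0.31 (adjusted p = 0.0787, 1.08 within number 1 and 0.82 within number 2), and MUS vs. Model gave -0.58 ± 0.31, with an adjusted p of 0.688. With the correction for GC content and length described further on, Rac2 was called in Model vs. Control (1.06, adjusted p = 0.0341). MUS vs. Control gave 0.37, and a negative value when libraries were scaled by fragment totals (-0.15), to equal sums (-0.033) or by quantiles (-0.22). Rac1, the GTPase of most cells, was at 67.2 to 81.5 FPKM in the 6 libraries and missed the threshold throughout.

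Of the dismutases, Sod2 was called higher in MUS vs. Control, and Sod1 missed the threshold in all 3 comparisons. Sod2 (chr17:13006846-13040063, plus strand), the manganese enzyme of mitochondria, was at 9.23 and 66.0 FPKM in Control libraries, 172 and 139 in Model libraries, and 212 and 183 in MUS. Every Model and MUS library was above both Control libraries, and Control replicate 2 was far above replicate 1. The log2 fold change came to 2.57 ± 0.78 in Model vs. Control, with an adjusted p of 0.0653. It was 4.08 within number 1 and 1.07 within number 2, and once the replicate number entered as a block it was called (adjusted p = 0.0449), but not with the block and the correction for GC content and length together (0.0765). Leaving out Control replicate 2 gave 3.93 (adjusted p = 0.000903), and leaving out Control replicate 1 gave 1.22 (adjusted p = 0.0861). Sod2 was called higher in MUS vs. Control by 2.92 ± 0.78 (adjusted p = 0.0360), with 4.38 within number 1 and 1.46 within number 2. That call was lost under 9 of 19 alternatives, among them leaving out any 1 of the Model or MUS libraries (adjusted p = 0.0558 to 0.194). Of the 50-base stretches of Sod2 transcripts, 21.0% also occur in transcripts of another gene, most in the lincRNA AC166110.4.

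Sod1 (chr16:90220754-90226329, plus strand), the copper-zinc enzyme of the cytosol, was at 10.5 and 4.45 FPKM in Control libraries, 2.45 and 2.55 in Model libraries, and 3.27 and 2.59 in MUS. Both Control libraries were above all 4 stimulated libraries, and the Control replicates differed from each other by more than the stimulated libraries did. Model vs. Control gave -1.18 ± 0.35 (adjusted p = 0.0616), with -1.74 within number 1 and -0.62 within number 2. With that block it was called lower in Model vs. Control (adjusted p = 0.0365) and in MUS vs. Control (-1.02, adjusted p = 0.0463, against 0.0746 without the block). With block and correction together it was not called in either (0.0563 and 0.0591). It was also called without Control replicate 2 (-1.72, adjusted p = 0.00745). Its level is uncertain, because the table divides by 3970 bases, which include a retained intron, whereas the coding transcript has 641 bases. If all fragments came from that transcript, the levels would be 65.2 and 27.5 FPKM in Control and 15.1 to 20.2 in the stimulated libraries. The gene also overlaps Scaf4 on the opposite strand, with a mean of 5.93 FPKM, and library construction as described does not mark strand. Between 137 and 955 fragments per library lay behind Sod1, against 32102 or more behind Cybb.

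The ratio of Sod2 to Sod1 was 0.878 and 14.8 in Control libraries, 70.3 and 54.6 in Model libraries, and 65.0 and 70.8 in MUS. All 4 stimulated libraries were above both Control libraries, and the Model and MUS values overlapped. On the spliced length of Sod1 alone these ratios would all be lower by the same factor of 6.19. The length used for Sod2, 10008 bases, also joins all annotated exons, and its longest coding transcript has 5861 bases.

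Of the peroxide-removing members, catalase fell with LPS and ATP. Cat (chr2:103453849-103485160, minus strand), the haem enzyme of peroxisomes, was at 58.9 and 65.0 FPKM in Control libraries, 19.1 and 16.8 in Model libraries, and 19.5 and 14.6 in MUS. The Control libraries were close to each other and above all others, and Model and MUS overlapped. In Model vs. Control the log2 fold change was -1.73 ± 0.27 (adjusted p = 0.00820), a level 0.301 times that of Control, with -1.57 within number 1 and -1.89 within number 2. It was called under all 19 alternatives, with log2 fold changes from -2.34 to -1.64 and adjusted p from 0.00376 to 0.0483. MUS vs. Control gave -1.82 ± 0.27 (adjusted p = 0.00554), and without MUS replicate 1 or 2 the adjusted p was 0.0568 or 0.0633. MUS vs. Model gave -0.086 with a 95% interval of -0.72 to 0.55.

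**Figure D2:**
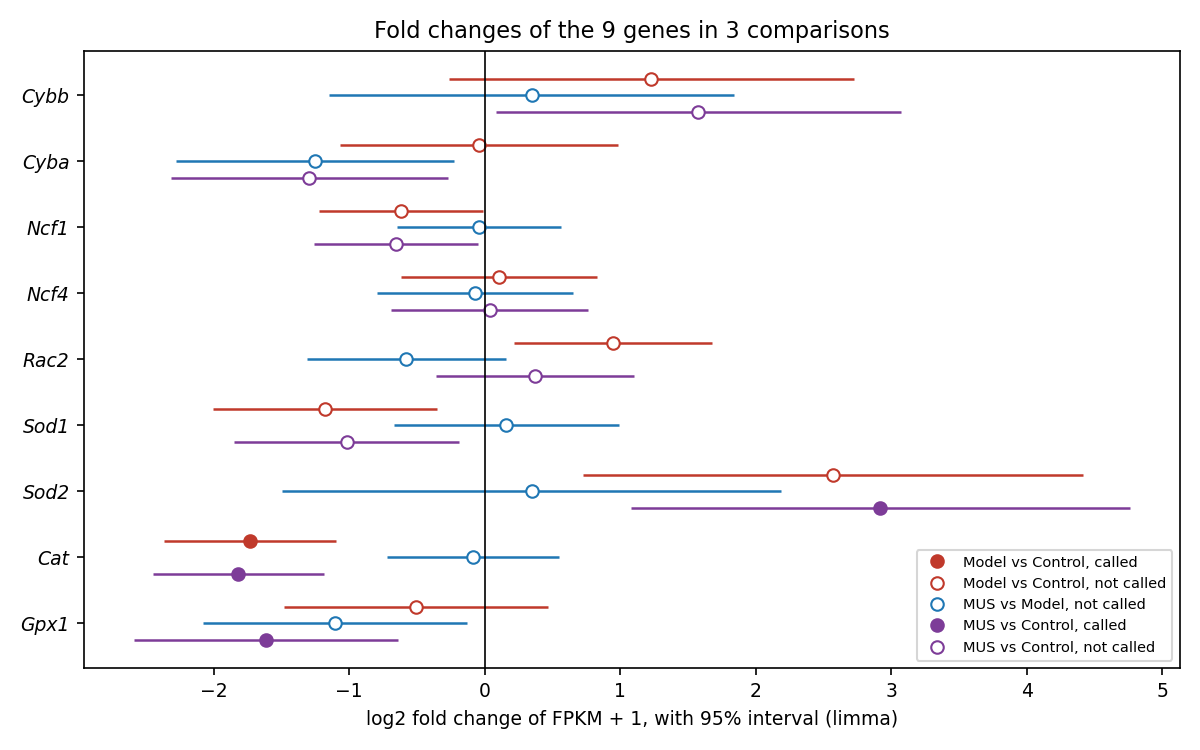
Log2 fold changes (x axis) of the 9 genes (y axis) in 3 comparisons, with bars for the 95% interval of limma and filled circles for called genes. Cat is filled in Model vs. Control and in MUS vs. Control, Sod2 and Gpx1 in MUS vs. Control, and no circle is filled in MUS vs. Model.

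Gpx1 (chr9:108338903-108340343, plus strand), the selenium enzyme that reduces peroxide with glutathione, followed another course. It was at 536 and 480 FPKM in Control libraries, 485 and 261 in Model libraries, and 142 and 192 in MUS. The Model libraries overlapped Control, and both MUS libraries were below all others. Model vs. Control gave -0.51 ± 0.41 (adjusted p = 0.418). MUS vs. Model gave -1.10 ± 0.41, with a 95% interval of -2.08 to -0.13 and an adjusted p of 0.522. Without Model replicate 1 it was -0.66, and without Model replicate 2 it was -1.55. It was -1.76 within number 1 and -0.45 within number 2. It was called lower in MUS vs. Control, at -1.61 ± 0.41 (adjusted p = 0.0317), a level 0.327 times that of Control, with -1.91 within number 1 and -1.32 within number 2. That call was lost under 5 of 19 alternatives, among them without Control replicate 1 (adjusted p = 0.0920) and without MUS replicate 1 or 2 (0.248 and 0.118). The ratio of Gpx1 to Cat was 9.10 and 7.38 in Control libraries, 25.3 and 15.5 in Model libraries, and 7.31 and 13.2 in MUS. The Model values were above all others, while Control and MUS overlapped. The genes differ in length and GC content, at 1441 bases and 56.5% for Gpx1 and 2613 bases and 50.2% for Cat. The part of this in the ratio was not tested.

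**Figure D3:**
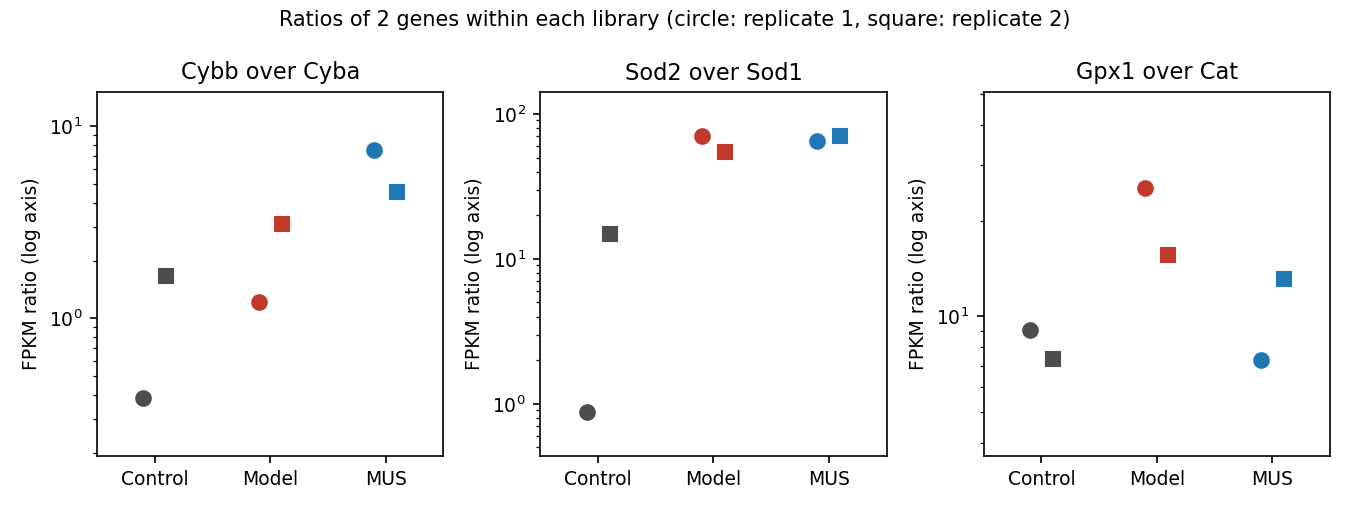
Ratio of the FPKM of 2 genes within each library (y axis, log scale), by group (x axis), with circles for replicate 1 and squares for replicate 2. Cybb over Cyba is highest in MUS, Sod2 over Sod1 is at 54.6 or more in every stimulated library, and Gpx1 over Cat is highest in Model.

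Calls of the members are read against those of all tested genes. A gene was called (a DEG) if its adjusted p did not exceed 0.05 and its log2 fold change was beyond 1 either way. In Model vs. Control, 1 of the 9 (Cat, lower) was called, where 15.1% of all tested genes were called, 9.5% higher and 5.56% lower. In MUS vs. Control, 3 of the 9 were called (Sod2 higher, Cat and Gpx1 lower), where 20.2% of genes were called, 11.3% higher and 8.91% lower. In MUS vs. Model, 0 of the 9 were called, and 0% of all 9794 genes. In MUS vs. Model, 825 genes (8.42%) had an unadjusted p under 0.05, 256 higher and 569 lower, as had 2 of the 9, Cyba and Gpx1, both lower. That held for 5 of the 9 in Model vs. Control and 7 of 9 in MUS vs. Control, beside 33.6% and 39.7% of all genes. Libraries of the groups did not overlap for 6 of the 9 genes in Model vs. Control, 6 of 9 in MUS vs. Model and 7 of 9 in MUS vs. Control, against 61.1%, 42.1% and 73.3% of all genes. The median log2 fold change of the 9 was -0.042, -0.071 and -0.66 in Model vs. Control, MUS vs. Model and MUS vs. Control, and that of all tested genes 0.041, 0.012 and 0.040. The comparisons share libraries, so their values are given side by side and not as support for each other.

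Scaling decided how many genes moved each way. The DEGs were 930 higher and 545 lower in Model vs. Control, and 1107 higher and 873 lower in MUS vs. Control. With libraries scaled by their own fragment totals, the splits were 647 higher and 1633 lower, and 743 and 2044. The median of all genes then moved to -0.42 and -0.41, because the deposited scale was 1.34 to 1.45 times the fragment total in Control and 0.909 to 0.998 times in Model and MUS. With equal FPKM sums the splits were 594 and 1484, and 765 and 1676, and with quantile normalization 707 and 715, and 885 and 1102. In every library the deposited scale was 1.05 to 1.07 times one set by the median ratio of genes to their geometric mean over libraries. Scaling by that median ratio gave 931 higher and 549 lower, and 1130 and 862. Relative to the median of all genes, Cat stayed lower and Sod2 higher under each of these scalings.

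**Figure D4:**
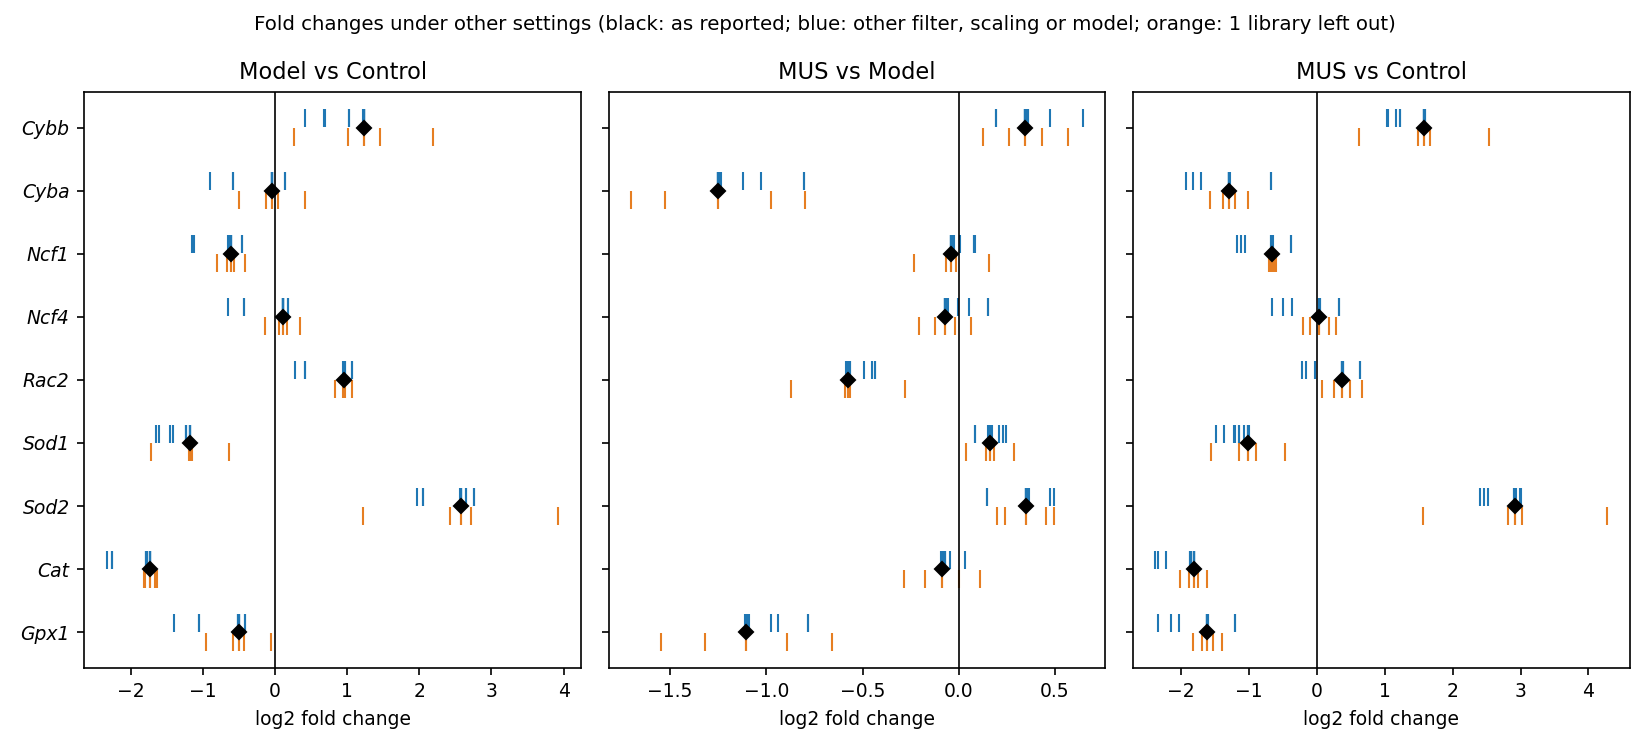
Log2 fold changes (x axis) of the 9 genes (y axis) in 3 comparisons as reported (black), under another filter, scaling or model (blue) and with 1 library left out (orange). In Model vs. Control the values of Cat stay between -2.34 and -1.64, while those of Cybb run from 0.27 to 2.19 and those of Sod2 from 1.22 to 3.93.

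Cyba and Gpx1, the members with the largest differences in MUS vs. Model, are short and rich in GC, with 1039 bases and 58.8% GC for Cyba and 1441 bases and 56.5% for Gpx1. The medians of the tested genes were 3910 bases and 49.3%. Of the 527 tested genes under 2000 bases and over 55% GC, limits set after the values were seen, 75.9% were lower in MUS vs. Model and their median was -0.42 (log2). Of the other 9267 genes, 47.2% were lower, with a median of 0.024. When GC content and length were taken out of each library, MUS vs. Model was -0.81 for Cyba and -0.78 for Gpx1. MUS vs. Control was then -0.67 for Cyba and -1.20 for Gpx1 (adjusted p = 0.0339, and 0.0590 with the replicate block). The part of GC content and length in these differences was not tested.

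Other genes of the pathway were counted from lists of 11 oxidase genes and relatives, 12 genes of oxidase assembly and support, and 24 genes of peroxide removal, of which 2, 11 and 21 were tested. In Model vs. Control 4 of the 34 were called, beside 15.1% of all tested genes. Glrx, a glutaredoxin that reduces glutathionylated proteins, rose by 1.42 ± 0.26 (adjusted p = 0.0134) from 3.74 and 5.87 FPKM in Control to 15.3 and 13.4 in Model, with 1.78 within number 1 and 1.06 within number 2. Prkcb, a protein kinase C, fell by 1.04 ± 0.22 (adjusted p = 0.0205), and Pak1, a kinase that binds active Rac, fell by 1.05 ± 0.23 (adjusted p = 0.0242). Gclc, the catalytic subunit of glutathione synthesis, fell by 1.27 ± 0.33 (adjusted p = 0.0412), from 14.3 and 27.4 FPKM to 7.32 and 7.97, with -0.88 within number 1 and -1.66 within number 2. Each of these calls was lost without some single library. Glrx lost it without Control replicate 1 or Model replicate 1 (adjusted p = 0.0624 and 0.0609), and Prkcb without Control replicate 1, Model replicate 2 or either MUS replicate (0.0575 to 0.0841). Of the 6 fits that left out 1 library, Pak1 was called only in that without Control replicate 2 and Gclc only in that without Control replicate 1. Without Control replicate 2 Gclc was at -0.82 (adjusted p = 0.0932). The oxidase list had 0 of 2 called in any comparison, and Nox1, Nox3, Nox4, Duox1, Duox2 and their partners on the list were at or below 0.116 FPKM in every library.

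Of the 34, 5 were called in MUS vs. Control, beside 20.2% of all tested genes, and neither of the 2 tested oxidase-list genes was among them. Gpx4, which reduces lipid peroxides within membranes, was at 91.6 and 98.3 FPKM in Control libraries, 80.2 and 45.5 in Model libraries, and 12.8 and 24.5 in MUS. Both MUS libraries were below all others, and the gene fell in MUS vs. Control by 2.35 ± 0.41 (adjusted p = 0.00934), with -2.75 within number 1 and -1.96 within number 2. In MUS vs. Model it was at -1.71 ± 0.41 with an adjusted p of 0.378, -2.56 within number 1 and -0.86 within number 2. With 1724 bases and 58.3% GC it belongs to the short, GC-rich genes, and after the correction its MUS vs. Control value was -1.73. Gpx3, the secreted glutathione peroxidase, fell in MUS vs. Control by 1.53 ± 0.28 (adjusted p = 0.0111), and Prkcb by 1.07 ± 0.22 (adjusted p = 0.0150). Txn1, thioredoxin, rose by 1.65 ± 0.47 (adjusted p = 0.0423), from 330 and 327 FPKM in Control to 1203 and 884 in MUS, and Glrx rose by 1.15 ± 0.26 (adjusted p = 0.0214). Within numbers 1 and 2 the values were 1.86 and 1.43 for Txn1 and 1.498 and 0.795 for Glrx. Each of these 2 calls was lost under 8 of 19 alternatives. Txn1 was at 0.96 with quantile normalization and Glrx at 0.69 with fragment-total scaling. Under fragment-total scaling 0 of the 34 were called higher in any comparison. Of all 10066 genes tested under it, 647 were called higher in Model vs. Control, 743 in MUS vs. Control and 0 in MUS vs. Model. Without MUS replicate 1 all 5 calls were lost (adjusted p = 0.101 to 0.272), and without MUS replicate 2 those of Glrx, Prkcb and Txn1 (0.0876 to 0.137). Without Control replicate 1 those of Glrx, Gpx3, Prkcb and Txn1 were lost (0.0654 to 0.106), and without Control replicate 2 that of Txn1 (0.0706). In MUS vs. Model 0 of the 34 were called. At an unadjusted p under 0.05, 3 of the 21 genes of peroxide removal differed there, beside 8.42% of all genes, namely Gpx4, Gpx3 and Ccs, the copper chaperone of Sod1 (-0.86, adjusted p = 0.380). All 3 were lower, and all 3 are short and GC-rich by the same limits. Gpx3 has 1813 bases and 55.2% GC, and Ccs 1057 bases and 56.2%. Gpx7, on the same list and within these limits at 1289 bases and 56.6% GC, was at -0.20 (adjusted p = 0.904). Its MUS and Model libraries overlapped. The part of length and GC content was not tested.

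**Figure D5:**
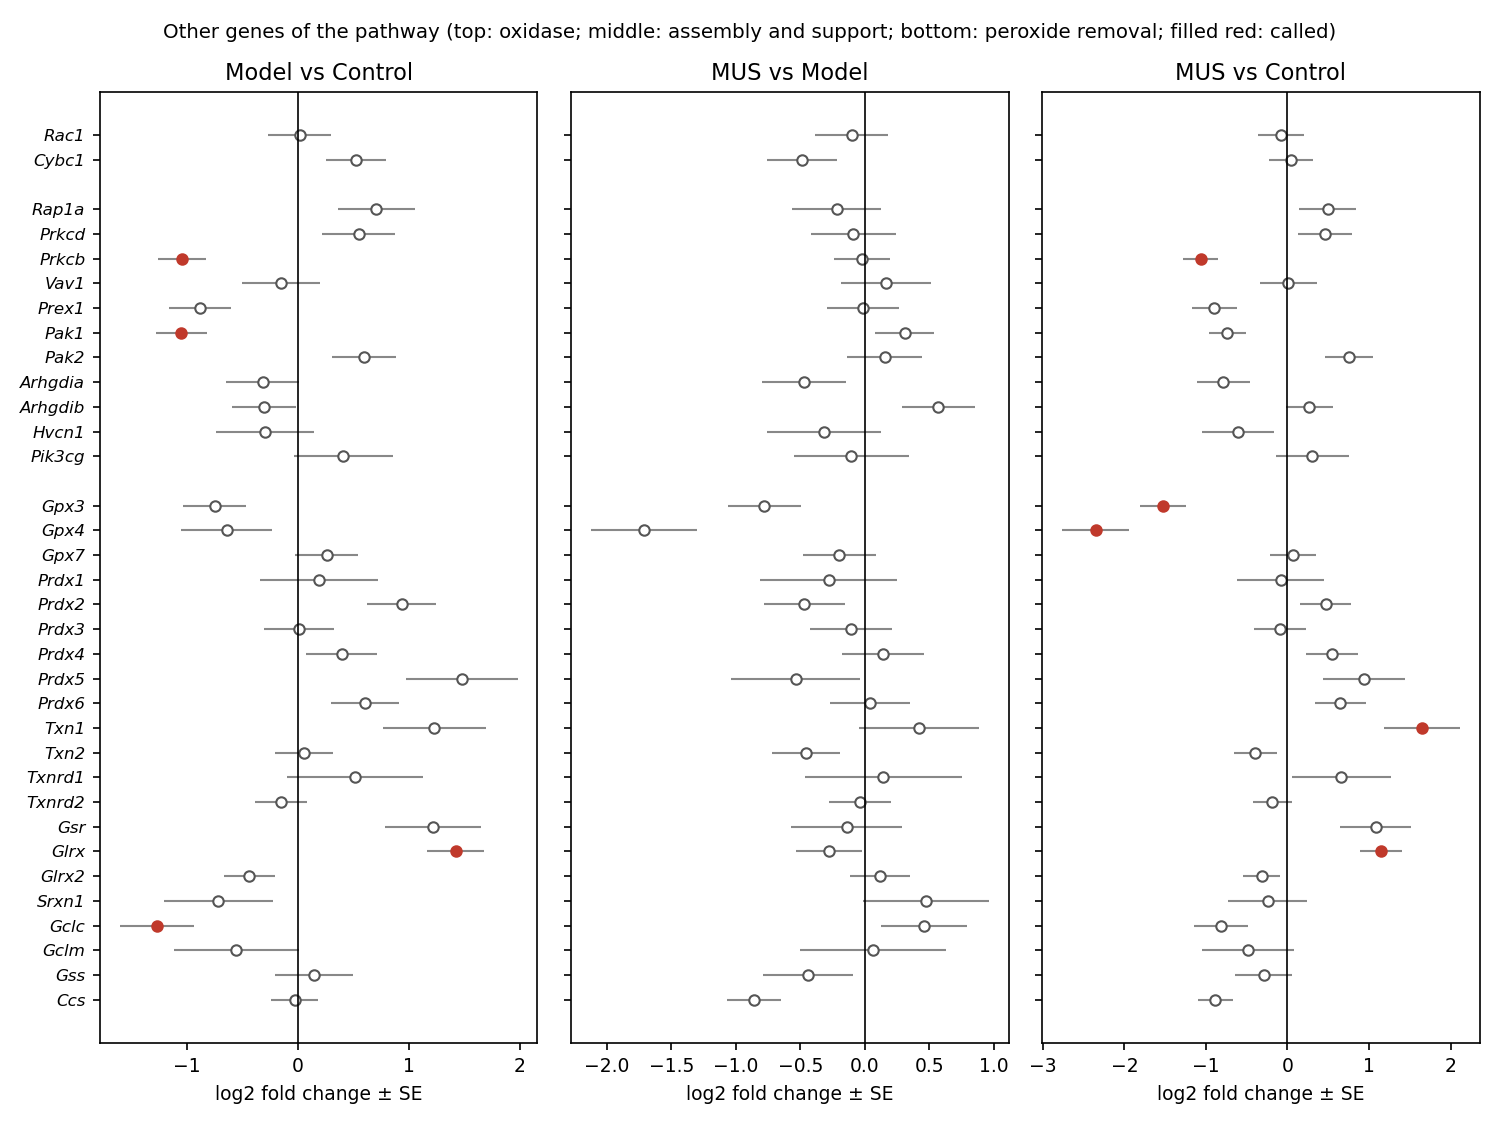
Log2 fold changes with SE (x axis) of the 34 other tested genes (y axis), in the order oxidase, assembly and support, and peroxide removal, with called genes filled in red. Glrx is filled right of 0 in both comparisons with Control, Gpx4 lies at -2.35 in MUS vs. Control, and no gene is filled in MUS vs. Model.

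Some of the members followed each other over the 6 libraries. Pearson's r of log2(FPKM + 1) was 0.966 for Cybb and Sod2, 0.964 for Cyba and Gpx1, 0.943 for Ncf1 and Cat. Sod1 ran opposite to Sod2 (-0.967), and the highest r with another member was 0.594 for Ncf4 and 0.630 for Rac2. Of the tested genes outside the 9, the most alike were Slc44a1 for Cybb (r = 0.997), Jund for Cyba (0.995), Snx15 for Ncf1 (0.999), Gpr107 for Ncf4 (0.980), Vps37c for Rac2 (0.987), Thbd for Sod1 (0.996), Dram1 for Sod2 (0.999), Rnf128 for Cat (0.998) and Cd300c2 for Gpx1 (0.995). These values describe 6 libraries in 3 groups that share their scaling, and the number of genes with r over 0.95 ran from 3 for Ncf4 to 412 for Sod2. By level, Cybb ranked 30 of 9794 by mean FPKM, Cyba 77, Gpx1 110, Sod2 329, Ncf4 670, Rac2 848, Cat 1305, Ncf1 1741 and Sod1 5704. In Control the order began with Cyba (592 ± 49.9 FPKM, SD), Cybb (582 ± 481) and Gpx1 (508 ± 39.7). The Cybb libraries lay on either side of the others, while both Cyba libraries were above both Gpx1 libraries. There followed Ncf4 (65.4 ± 15.6) and Cat (62.0 ± 4.34), which overlapped. In MUS the order was Cybb (1414 ± 118), Cyba (245 ± 65.8), Sod2 (198 ± 20.5) and Gpx1 (167 ± 34.8). The libraries of Cyba and Sod2 overlapped there, as did those of Sod2 and Gpx1, while both Cyba libraries were above both Gpx1 libraries. Cat, at 17.0 ± 3.47 FPKM, was there beside Ncf1 at 18.5 ± 0.476.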

How the data were processed

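RNA-seq of peritoneal macrophages was analysed in 3 groups of 2 libraries. The authors deposited 1 table of FPKM, and 0 of its per-library columns lacked a sample. The methods name RSEM and DESeq2, whereas the submitters' processing notes list HISAT2, featureCounts 1.5.0-p3 and GRCm39. Gene positions are those of GRCm38, since start and end matched GENCODE M21 for 98.3% of the 54495 identifiers found there. In each library, 100% of the products of FPKM and gene length fell on whole steps (tolerance 0.1 of a step), which gave whole fragments per gene. A count of 0 allows up to 3 fragments, for counting error only.

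limma 3.58.1 in R 4.3.3 (Python 3.11.15, NumPy 2.4.6, pandas 2.3.3, Matplotlib 3.10.9) was fitted with a mean-variance trend to log2(FPKM + 1) in 1 model of all 6 libraries. Genes needed a mean of 1 FPKM or more. It had 3 residual and 4.04 prior degrees of freedom. Fold changes are on the log2(FPKM + 1) scale, which understates those of low genes. All tests were two-sided, and p-values were adjusted by Benjamini-Hochberg over all genes tested. The fit was checked on simulated data. That check required calls only at a spread smaller than that of these data, so it does not show how many real differences are found here. Alternatives were another pseudocount, filter, scaling, trend or set of groups, voom on the recovered fragments, a replicate block, each library left out and, added after seeing the data, a correction for GC content and gene length.

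The labels give the replicate number as the batch, without saying what a batch is. The main fit did not use it, and the replicate block did. Differences between replicates 1 and 2, compared across genes, gave r = 0.119 between Control and Model, 0.136 between Model and MUS, and -0.093 between MUS and Control. The named genes were the 9 members, listed pathway genes called in any comparison, Rac1 and Gpx4, and the gene most correlated with each member. Ccs, AC166110.4, Gtf2ird2 and Scaf4 were named after their values were seen. Members and lists were chosen with earlier results of these data known. The result for 1 listed gene is not reported here. Near-identical copies were sought as shared 50-base stretches of transcripts.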

Additional observations from a re-analysis of the deposited data

How the results depend on the processing

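The results named for 36 pairs of gene and comparison were recomputed under 679 settings in all, of which 551 kept direction and side of the threshold, 28 turned direction, 68 lost a call and 32 gained one. Counts of DEGs in Model vs. Control (1475) were 260 with no filter on low values, 2280 with fragment-total scaling, 797 with only the 2 groups compared, and 686 to 2024 with 1 library left out. Those in MUS vs. Control (1980) were 456 with no filter and 207 to 2345 with 1 library left out. In MUS vs. Model (0) they were 1 with a pseudocount of 0.1, 7 with only the 2 groups, 4 with the replicate block, 1 with the GC and gene-length correction and 0 to 34 with 1 library left out, the highest without Model replicate 2. Members called in Model vs. Control (1) were 2 at a mean FPKM of at least 5, 3 with fragment-total scaling, equal FPKM sums, quantile normalization, voom or the replicate block, 2 with the GC and gene-length correction with or without the block, and 1 to 4 with 1 library left out. Those in MUS vs. Control (3) were 1 with no filter, 6 with fragment-total scaling or equal sums, 1 with block and correction together, and 0 to 5 with 1 library left out, being 0 without either MUS replicate. Other pathway genes called in Model vs. Control (4) were 0 with no filter, 7 with quantile normalization, 1 with only the 2 groups and 1 to 6 with 1 library left out. In MUS vs. Control (5) they were 0 with no filter, 8 with fragment-total scaling, 9 with equal sums, 3 with block and correction together and 0 to 6 with 1 library left out. The replicate block added the calls of Sod1 and Sod2 in Model vs. Control and of Sod1 in MUS vs. Control, and changed no other call of a named gene. All genes called in Model vs. Control were 2280 of 10066 with fragment totals and 2078 of 9915 with equal sums. They were 260 of 30192 with no filter and 1086 of 5262 at a mean FPKM of at least 5. Of 9794 tested, 1422 were called with quantiles, 1796 with voom, 1582 with the block, 1464 with the correction and 1407 with both. In MUS vs. Control, 456 of 30192 were called with no filter, 2787 of 10066 with fragment totals and 2441 of 9915 with equal sums. With both, it was 1614 of 9794.

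Directions that turned were all of differences that missed the threshold. In Model vs. Control, Cyba was at 0.13 with the GC and gene-length correction (with or without the block) and -0.50 to 0.41 with 1 library left out, and Ncf4 at -0.43 with fragment-total scaling, -0.43 with equal sums, -0.66 with quantiles and -0.13 to 0.35 with 1 library left out. In MUS vs. Model, Ncf1 was at 0.082 with equal sums, 0.080 with the correction, 0.0069 with quantiles and -0.23 to 0.16 with 1 library left out. Ncf4 was at 0.054 with equal sums, 0.15 with the correction and -0.21 to 0.063 with 1 library left out, and Cat at 0.034 with equal sums and -0.28 to 0.11 with 1 library left out. In MUS vs. Control, Ncf4 was at -0.50 with fragment totals, -0.37 with equal sums, -0.66 with quantiles and -0.21 to 0.28 with 1 library left out, and Rac2 at -0.15, -0.033 and -0.22 under the 3 scalings. The cause was not tested. With 2 libraries per group, only large differences could pass.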
